A study of Mus musculus with 6 samples.

Results

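The genes described here are 32 genes of mitosis: cyclins, kinases, spindle proteins, and centromere and kinetochore proteins whose transcripts accumulate in cells that enter division. They are defined by a list of names, and all 32 were found among the 21135 genes of the deposited table and passed the filter on low levels that left 17815 genes for testing. RNA was sequenced from DN3 thymocytes of C57BL/6 mice, in 3 libraries that are wild type for NMe and 3 that carry mutated GATA sites 1 and 2 of NMe on both alleles. No treatment, age or sex is given in the labels. NMe is the Notch-dependent distal enhancer of Myc. The libraries are numbered 1 to 3 in each genotype, but whether each is a different animal is not stated. A p-value here therefore covers only how far these libraries scatter, which may be technical.

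DN3 thymocytes are the stage at which a T-cell precursor rearranges its receptor beta gene, and cells that succeed begin to divide fast. Cyclin B with the kinase Cdk1 drives a cell into mitosis, Aurora and Polo-like kinases build the spindle and correct its attachments, and the kinetochore is the protein plate by which each chromosome holds on to spindle microtubules. When all chromosomes are attached, Cdc20 switches on the anaphase-promoting complex, which marks the mitotic cyclins for destruction and lets the chromosomes part.

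Many genes of this programme are controlled through 2 promoter motifs, the cell cycle genes homology region (CHR, letters TTTGAA) and the CCAAT box (letters CCAAT), which are bound by the DREAM and MuvB complexes and by NF-Y. Promoter windows from RefSeq (GRCm38.p6), each 300 bases long and running from 250 bases before the start to 50 after it, were matched for 27 of the 32 genes. Spc24, Ccna2, Aurkb, Tpx2 and Kif20a had no match. A gene with several windows counts once, through any of them, here and below. Counting both strands, 20 of 27 genes (74.1%) held the CHR letters, against 20.2% of 27025 genes with a window. The CCAAT letters were held by 21 (77.8%), against 41.1%. Both motifs stood in a window of 18 genes (66.7%), against 7.97% of all. The MYC E-box (letters CACGTG) was found for 2 genes (7.41%), Anln and Ttk, against 8.09% of all. Each motif was searched on its own, so that matches may share an end base. A match is a description of sequence only, and no test was made. The 100 bases before the start are printed for Cdk1 and Cdc20, which were lower in the mutant, for Kif11, whose genotypes did not overlap, and for Top2a, which had the most reads of the 32 genes before division by length. They show matches that lie before the start. Capitals mark TTTGAA and CCAAT on either strand, so that TTCAAA and ATTGG are the same motifs read on the other strand. The windows lie at chr10:69352913-69353012 (Cdk1, minus strand), chr4:118437344-118437443 (Cdc20, minus strand), chr19:37376282-37376381 (Kif11, plus strand) and chr11:99024190-99024289 (Top2a, minus strand).
Cdk1: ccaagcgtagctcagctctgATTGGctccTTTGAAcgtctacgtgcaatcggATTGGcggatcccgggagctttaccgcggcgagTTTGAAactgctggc
Cdc20: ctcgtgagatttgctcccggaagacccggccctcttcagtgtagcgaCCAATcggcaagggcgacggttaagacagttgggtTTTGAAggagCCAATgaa
Kif11: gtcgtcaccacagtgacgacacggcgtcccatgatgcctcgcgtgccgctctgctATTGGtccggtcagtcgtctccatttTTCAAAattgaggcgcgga
Top2a: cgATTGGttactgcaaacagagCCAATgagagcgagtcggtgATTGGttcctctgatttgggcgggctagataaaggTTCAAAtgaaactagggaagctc
In each of these 4 windows a CHR match began close to the start of transcription. It began 15 bases before the start in Cdk1, 18 in Cdc20, 19 in Kif11 and 23 in Top2a, with at least 1 CCAAT box farther upstream. Only windows with such a match were considered for printing. Prc1 and Ube2c also had one, 30 and 29 bases before the start, and are not printed. The 4 printed windows do not stand for all 27 genes with a window. Of these genes, 8 had a CHR match wholly before the start and 12 had one only across or after it, among them Bub1b, Plk1 and Spc25. The other 7 had none (Ccnb1, Plk4, Bub1, Birc5, Nusap1, Cenpe and Nuf2).

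Between 38.6 and 51.3 M reads were recovered from a library, with wild type replicate 3 the deepest and mutant replicate 3 the shallowest. The principal component with most variance (42.0%) separated the genotypes, and in the next (17.1%) wild type replicate 3 stood alone within its genotype. All 8 listed DN3 markers were present in every library, with summed levels of 161800 to 183653 in the wild type against 248748 to 278241 in the mutant. Il2ra made up much of that sum (58950 ± 2814 against 106147 ± 8063, SD, n = 3), while Rag1 went the other way without overlap (10201 ± 314 against 6835 ± 694). Wild type replicate 2 held haemoglobin RNA (3523 normalised reads of Hbb-bs, against 0 to 22.3 in the other 5 libraries). The B-cell markers Ms4a1 and Pax5 and the stromal markers Foxn1 and Pdgfra were not analysed here. Myc, the gene that NMe serves, had 18041, 19223 and 20196 normalised reads in wild type replicates 1 to 3 and 5562, 4612 and 6165 in the mutant. It was lower in every mutant library than in any wild-type library, in the direction that the labels imply.

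Per kilobase of merged exon, the most abundant of the 32 transcripts were Cdc20 (4339 normalised reads per kb, mean of 6 libraries), Ccnb2 (4271) and Ube2c (4188), the activator of the anaphase-promoting complex, a B-type cyclin that it marks, and its ubiquitin-conjugating enzyme. The least abundant were Cenpf (230), Anln (252) and Ttk (327). Together the 32 genes took 0.433%, 0.466% and 0.547% of the reads in wild type replicates 1, 2 and 3, and 0.391%, 0.427% and 0.553% in mutant replicates 1, 2 and 3. The share was highest in replicate 3 of each genotype, and the genotypes overlapped.

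The 32 genes rose and fell together from library to library. A library shift is given here as the median over genes of log2(value + 1) minus the mean of that gene in its own genotype. It was -0.16, -0.04 and 0.18 in wild type replicates 1, 2 and 3, and -0.19, -0.08 and 0.26 in mutant replicates 1, 2 and 3. In wild type replicate 3, 31 of 32 genes lay above the mean of their genotype, and in mutant replicate 3 all 32 did, while in wild type replicate 1 none did. From the lowest to the highest library the median moved 1.27-fold among wild-type and 1.36-fold among mutant libraries. Over all genes tested it moved 1.01-fold and 1.02-fold. Replicate 3 was the highest library in both genotypes for 31 of the 32 genes (96.9%), against 12.5% of all genes tested. The exception was Cdca3, a trigger of Wee1 destruction, which among the wild-type libraries was highest in replicate 2. In RNA from many cells at once, fewer dividing cells and less of each RNA per cell cannot be told apart.

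**Figure D1:**
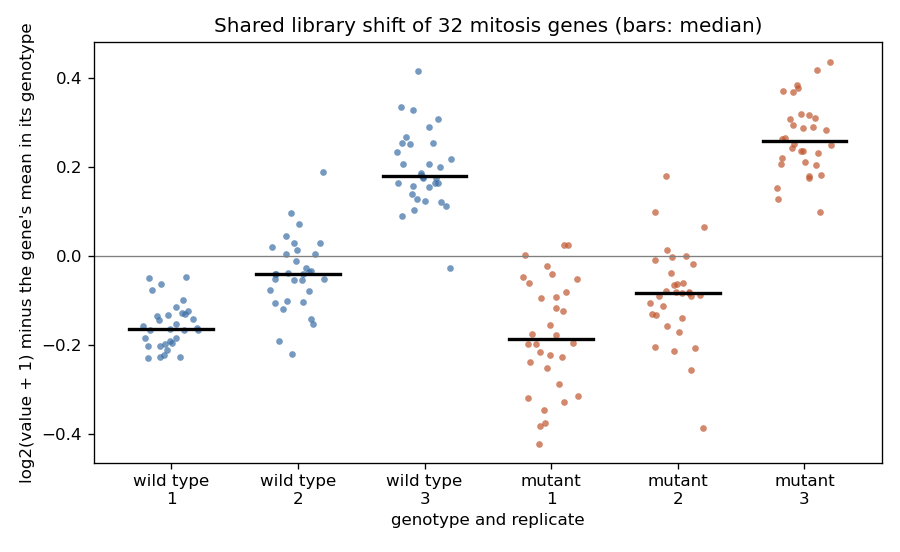
Each point is 1 of the 32 genes in 1 library, as log2(value + 1) minus the gene's mean in its own genotype (y axis), with bars at the median. Replicate 3 stands above the other 2 libraries in both genotypes, at medians of 0.18 and 0.26.

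The shift reached other genes of division. Among 143 further mitosis genes the medians were -0.11, -0.02 and 0.14 in the wild type against -0.14, -0.04 and 0.17 in the mutant, and 88 of them (61.5%) were highest in replicate 3 of both genotypes. Among 32 genes of DNA replication the medians were -0.11, 0.00 and 0.12, and -0.13, -0.01 and 0.13, with 27 genes (84.4%) highest in both. Of the 7 roles into which the 32 genes were sorted, the kinesin and spindle group had the lowest value in mutant replicate 1 apart from the pair Mki67 and Top2a (-0.29 and -0.33), and the kinases had the highest in mutant replicate 3 (0.32). Of 7 marker genes of cells that have passed beta selection, 2 were highest in replicate 3 of both genotypes, Tfrc (10574, 10629 and 13276, then 5914, 7045 and 7666) and Slc3a2. The summed level of the 7 ran from 31372 to 36564 in the wild type against from 33600 to 44148 in the mutant, and was highest in wild type replicate 1 and in mutant replicate 3. The sum of the DN3 markers was lowest in replicate 3 of each genotype, but 2 of the 8 genes were lowest in both. The sum of the 5 markers of later alpha-beta thymocytes was also lowest there, with 1 gene (Ccr9) lowest in both and 2 highest in both. It ran from 4563 to 6995 in the wild type against from 3533 to 4465 in the mutant. The part of these cell types, or of depth, in the shift was not tested.

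**Figure D2:**
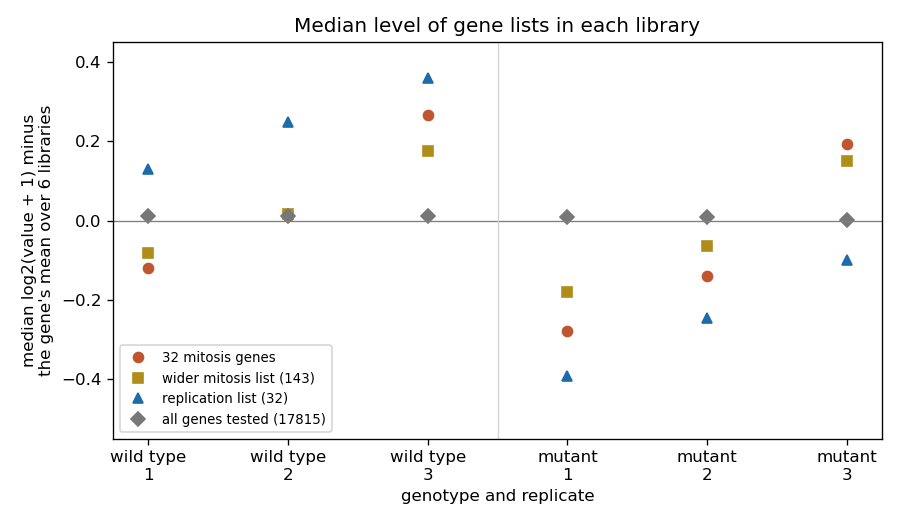
Points give, for each library (x axis), the median over a gene list of log2(value + 1) minus the gene's mean over the 6 libraries (y axis), for the 32 mitosis genes, the 143 further mitosis genes, the 32 replication genes and all genes tested. The 32 mitosis genes overlap between genotypes, whereas every mutant library lies below every wild-type library for the replication genes.

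Against this movement the genotype difference of the 32 genes was small as a group. The median library value, taken from the mean over all 6 libraries, was 0.05 ± 0.20 in the wild type against -0.07 ± 0.24 in the mutant (SD, n = 3 each), a difference of -0.13 that is smaller than the spread within either genotype. The median of the fitted mutant minus wild type differences was -0.08, with 22 genes below 0 and 10 above, beside 0.03 over all genes tested. It moved with single libraries, to -0.18 and -0.13 without wild type replicates 1 and 2, to -0.0042 without wild type replicate 3, to -0.038 without mutant replicate 1 and to -0.24 without mutant replicate 3. With equal library totals it was -0.024, with 17 genes below 0 and 15 above. With limma and an adjusted p under 0.05, 2 of the 32 genes were called lower, Cdk1 and Cdc20, against 10.9% of all genes tested, and 0 were called higher, against 7.94%. At an unadjusted p under 0.05 the counts were 7 lower, against 17.5% of all genes tested, and 0 higher, against 15.9%. Adjusted p-values called 1 lower in edgeR (10.2% of all genes), 5 in DESeq2 (13.3% of genes with an adjusted p) and 1 in voom (10.5%). None of these 3 called any higher, against 8.2%, 11.1% and 8.28% of all genes. Without overlap between the genotypes, 3 genes were lower (Cdk1, Cdc20 and Kif11), against 20.3% of all genes tested, and 0 were higher, against 18.0%.

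**Figure D3:**
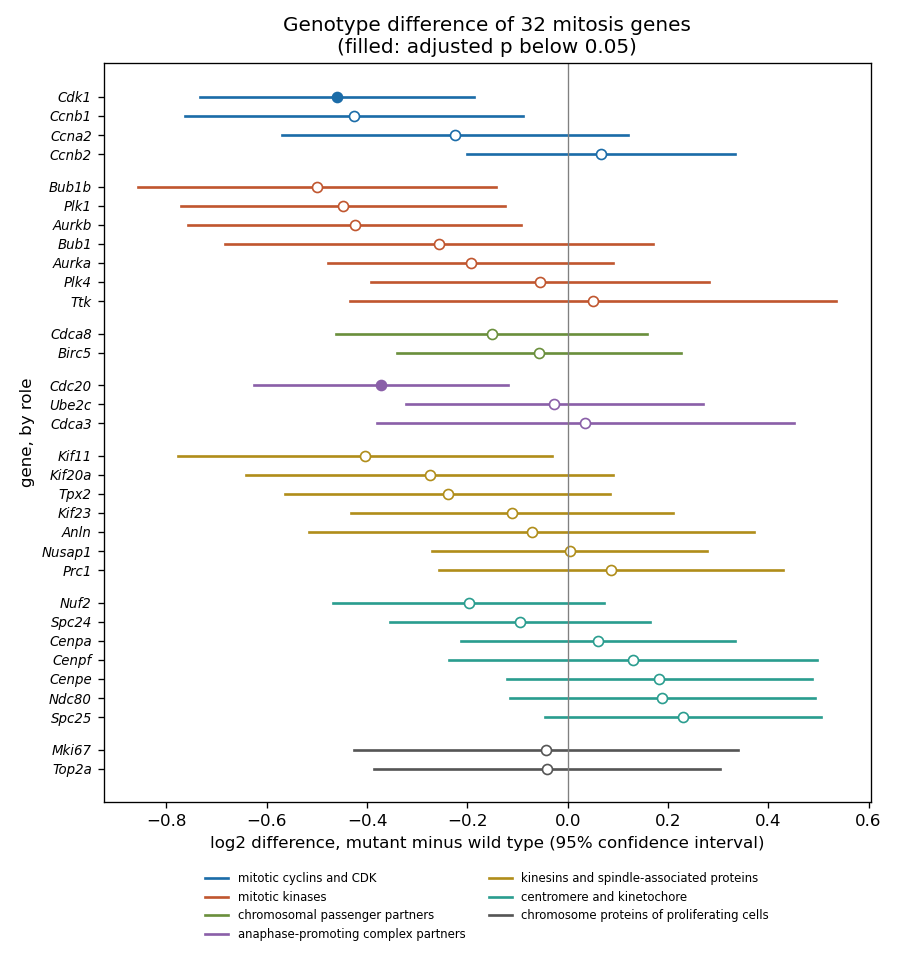
Points are the log2 difference, mutant minus wild type (x axis), of each of the 32 genes by role (y axis), with 95% confidence intervals, and filled points mark an adjusted p under 0.05 in limma. Cdk1 and Cdc20 are filled, and 5 of the 7 centromere and kinetochore genes lie above 0.

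Cyclins and Cdk1 had a median difference of -0.33, with 3 of 4 below 0 and 1 called. Cdk1 (ENSMUSG00000019942.13, chromosome 10, 69335146 to 69352938 on GRCm38) is the protein-coding gene of the kinase that triggers entry into mitosis. It had 6097, 6534 and 7830 normalised reads in wild type replicates 1 to 3 and 4623, 4654 and 5570 in mutant replicates 1 to 3. Every mutant library lay below every wild-type library, although mutant replicate 3 came close to wild type replicate 1. The level was 6820 ± 901 in the wild type against 4949 ± 538 in the mutant (SD, n = 3), 1.38-fold lower (log2 difference -0.46 ± 0.12 SE, limma adjusted p = 0.0274). The call was lost without wild type replicate 2 or 3 (adjusted p = 0.0708 and 0.0881) and without mutant replicate 1 or 2 (0.0744 and 0.0891). It was also lost with libraries scaled to equal totals (0.0517) and without a variance trend (0.105).

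Ccnb1 encodes cyclin B1, the partner of Cdk1, and had 10789, 10914 and 14122 normalised reads in the wild type against 7690, 8160 and 10924 in the mutant. Mutant replicate 3 overlapped the lower wild-type libraries. Its log2 difference was -0.43 ± 0.15 (limma adjusted p = 0.0776), and 4 close copies of the gene were listed at means of 39.9 to 173 normalised reads, against 10433 for Ccnb1 itself. The second B-type cyclin, Ccnb2, had 5834, 6381 and 6917 normalised reads in the wild type against 6773, 5769 and 7557 in the mutant, with overlap. Its difference was 0.07 ± 0.12 (95% confidence interval -0.20 to 0.33, adjusted p = 0.741), so the interval reaches both lower and higher values. Whether the 2 cyclins differed from each other was not tested. Ccna2, cyclin A2, had a difference of -0.22 ± 0.15 (adjusted p = 0.341), and 12.5% of its merged exons overlap Exosc9 on the opposite strand, whose reads the kit does not separate by strand.

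The kinases had a median difference of -0.26, with 6 of 7 below 0 and 0 called. Bub1b encodes BubR1, the spindle-checkpoint protein that holds back Cdc20, and had 10335, 11283 and 13402 normalised reads in the wild type against 6958, 7489 and 10613 in the mutant. Mutant replicates 1 and 2 were below all wild-type libraries and mutant replicate 3 was above wild type replicate 1. With -0.50 ± 0.16 it had the lowest difference of the 32 genes (limma adjusted p = 0.0547). Plk1, the Polo-like kinase of centrosome maturation and spindle assembly, had 5752, 6626 and 7422 normalised reads in the wild type against 4122, 4605 and 5876 in the mutant (-0.45 ± 0.15, adjusted p = 0.0571). Aurkb, the kinase of the chromosomal passenger complex, had 6939, 7332 and 8661 in the wild type against 4760, 5415 and 7074 in the mutant (-0.42 ± 0.15, adjusted p = 0.075). In both genes mutant replicate 3 alone reached the wild-type range, above wild type replicate 1.

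Ttk encodes Mps1, the kinase that starts checkpoint signalling at the kinetochore. It had 1346, 1324 and 2061 normalised reads in the wild type against 1231, 1596 and 2079 in the mutant, with full overlap and replicate 3 highest in each genotype. Its difference was 0.05 ± 0.22 (adjusted p = 0.894). Aurka, Plk4 and Bub1, kinases of the spindle pole, of centriole duplication and of the checkpoint, had differences of -0.19, -0.06 and -0.26 (adjusted p = 0.321, 0.831 and 0.381).

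Leaving out mutant replicate 3 raised the number of genes called lower from 2 to 6 (Bub1b, Cdc20, Plk1, Cdk1, Aurkb and Ccnb1), against 8.78% of all genes tested. In that fit 0 were called higher, against 6.68%. Leaving out both libraries numbered 3, a setting chosen after seeing the data, gave 5 lower (Bub1b, Plk1, Cdk1, Aurkb and Ccnb1), against 7.24%, and 0 higher, against 6.0%. Without both libraries numbered 3, Cdc20 had an adjusted p of 0.0512 in limma, and Bub1b had the lowest, 0.0101, at a difference of -0.58.

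**Figure D4:**
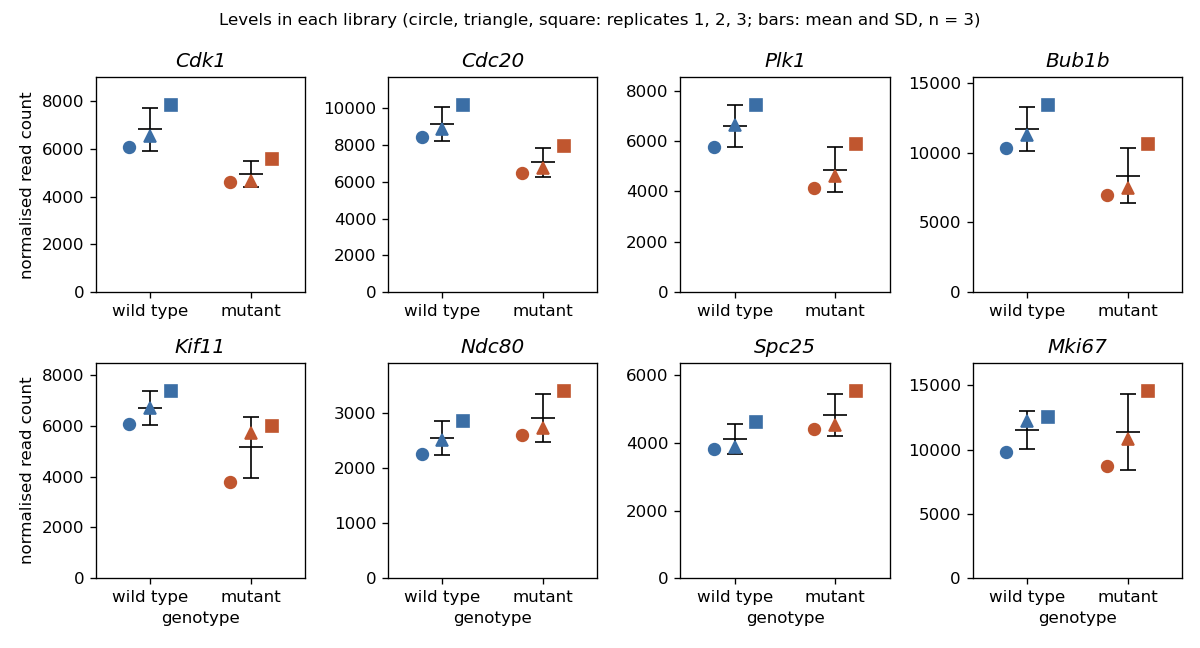
Normalised read counts (y axis, from 0) of 8 genes in each library by genotype (x axis), with circles, triangles and squares for replicates 1, 2 and 3 and bars for the mean and SD of 3 libraries. The square of replicate 3 is the highest of its genotype in all 8 genes, and Cdk1, Cdc20 and Kif11 are without overlap.

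The partners of Aurkb in the chromosomal passenger complex, which corrects faulty attachments and helps divide the cell, were nearer to 0. Birc5, or survivin, had 5937, 7145 and 7403 normalised reads in the wild type against 6353, 5798 and 7573 in the mutant (-0.06 ± 0.13, adjusted p = 0.79). Cdca8, or borealin, had 5577, 6587 and 7323 in the wild type against 5725, 5009 and 6846 in the mutant (-0.15 ± 0.14, adjusted p = 0.484). The genotypes overlapped in both, with the second mutant library the lowest of the 6.

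Among the partners of the anaphase-promoting complex, Cdc20 was the gene called lower (ENSMUSG00000006398.15, chromosome 4, 118432901 to 118437352 on GRCm38, protein-coding). It had 8413, 8859 and 10157 normalised reads in the wild type against 6487, 6744 and 7968 in the mutant, without overlap. The level was 9143 ± 906 in the wild type against 7066 ± 791 in the mutant (SD, n = 3), 1.29-fold lower (log2 difference -0.37 ± 0.11 SE, limma adjusted p = 0.0457). This call lay close to the threshold and was lost in edgeR (adjusted p = 0.0601), in voom (0.0529), and in limma with TMM factors (0.051), equal totals (0.09) or no variance trend (0.139). It was kept without mutant replicate 3 but not without any one of the other 5 libraries (limma adjusted p 0.0584 to 0.142). Ube2c, the ubiquitin-conjugating enzyme of the complex, had a difference of -0.03 ± 0.13 (adjusted p = 0.909). Of its merged exons 22.8% overlap Tnnc2 on the opposite strand, a gene that is absent from the deposited table, so the level of Ube2c is less certain. Cdca3 had 4051, 5164 and 4448 normalised reads in the wild type against 4482, 3551 and 6292 in the mutant (0.04 ± 0.19, adjusted p = 0.915), and the mutant libraries spread across the whole wild-type range.

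Kinesins and spindle-associated proteins had a median difference of -0.11, with 5 of 7 below 0 and 0 called. Kif11, the Eg5 motor that pushes the spindle poles apart, had 6065, 6717 and 7382 normalised reads in the wild type against 3778, 5738 and 5990 in the mutant. No mutant library reached the wild-type range, but mutant replicate 1 lay far below the other mutant libraries. Its difference was -0.40 ± 0.17 (limma adjusted p = 0.122), and -0.19 without mutant replicate 1. Prc1, which bundles the microtubules of the central spindle, had 4518, 4897 and 5899 in the wild type against 4326, 5634 and 6405 in the mutant (0.09 ± 0.15, adjusted p = 0.737), with overlap, and 11.1% of its exons overlap Rccd1 on the opposite strand. The other 5, Kif20a and Kif23 of cytokinesis, the spindle assembly factor Tpx2, Nusap1 and the actin binder Anln, had differences of -0.27 to 0.00 (adjusted p 0.271 to 0.984). The lowest of these, Kif20a, shares 29.3% of its exons with Cdc23 on the opposite strand, so its value is uncertain.

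Centromere and kinetochore genes were the role with a median above 0 (0.13), with 5 of 7 positive, 2 negative and 0 called. Spc25 had 3825, 3879 and 4625 normalised reads in the wild type against 4407, 4540 and 5535 in the mutant, a difference of 0.23 ± 0.12 that is the highest of the 32 genes (limma adjusted p = 0.221). Wild type replicate 3 lay above mutant replicates 1 and 2, so the genotypes overlapped. Ndc80 had 2252, 2508 and 2852 in the wild type against 2585, 2722 and 3388 in the mutant (0.19 ± 0.14, adjusted p = 0.366), and here too wild type replicate 3 alone exceeded the lower mutant libraries. Another gene, 2700099C18Rik, has a transcript 95.05% identical to that of Ndc80 over 303 bases. Its mean was 998 normalised reads, against 2718 for Ndc80, and whether the 2 genes shared reads was not tested. Cenpe, the kinesin motor of the kinetochore, had 3511, 3954 and 4191 in the wild type against 3839, 4139 and 5352 in the mutant (0.18 ± 0.14, adjusted p = 0.382). Wild type replicates 2 and 3 lay above mutant replicate 1, and wild type replicate 3 also lay just above mutant replicate 2.

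Spc25 and Ndc80 belong to the Ndc80 complex, the microtubule grip of the kinetochore, whose other subunits are Nuf2 and Spc24. Nuf2 had 2587, 2404 and 3074 normalised reads in the wild type against 2204, 2304 and 2497 in the mutant (-0.20 ± 0.12, adjusted p = 0.286), with overlap between mutant replicate 3 and wild type replicate 2. Spc24 had a difference of -0.10 ± 0.12 (adjusted p = 0.613). The fitted values of the 4 subunits thus lay on both sides of 0, none was called, and the difference between subunits was not tested. Cenpa, the histone of the centromere, and Cenpf had differences of 0.06 and 0.13 (adjusted p = 0.767 and 0.622).

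Mki67 and Top2a coat and untangle mitotic chromosomes, and Ki-67 is the usual stain for dividing cells. Mki67 had 9826, 12266 and 12544 normalised reads in the wild type against 8755, 10858 and 14558 in the mutant (-0.04 ± 0.17, 95% confidence interval -0.43 to 0.34, adjusted p = 0.889). Top2a had 20954, 23282 and 28764 in the wild type against 18779, 25115 and 27329 in the mutant (-0.04 ± 0.15, interval -0.39 to 0.30, adjusted p = 0.88). For both genes the lowest and highest mutant libraries lay far enough apart to take in most wild-type values.

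The genotype difference was also fitted with the library shift of the 143 further mitosis genes as a covariate. None of the 32 genes is in that list. The covariate itself differed between genotypes by -0.07 (0.04 in the wild type, -0.03 in the mutant), so these differences are relative to other mitosis genes and not differences in level. In this fit limma called 6 genes lower, against 11.0% of all genes tested, and 1 higher, against 7.88%. The 6 were Bub1b (-0.38 ± 0.09, adjusted p = 0.0159), Cdk1 (-0.39 ± 0.09, 0.0187), Plk1 (-0.34 ± 0.09, 0.0249), Cdc20 (-0.31 ± 0.08, 0.0336), Aurkb (-0.32 ± 0.09, 0.0338) and Ccnb1 (-0.32 ± 0.09, 0.0359). They encode regulators of entry into mitosis, of the spindle checkpoint and of exit from it, but other genes of these roles were not called. The calls were 2 of 4 among cyclins and Cdk1, 3 of 7 kinases and 1 of 3 partners of the anaphase-promoting complex. Among those not called were the checkpoint kinases Ttk (0.21) and Bub1 (-0.11) and the cyclin Ccnb2 (0.12). Spc25 was the gene called higher (0.30 ± 0.09, adjusted p = 0.049), and Cenpe and Ndc80 had 0.27 each (adjusted p = 0.0782 and 0.0805). The median over the 32 genes was 0.00. Standard errors fell with the covariate, in Bub1b from 0.16 to 0.09, and every difference moved up.

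After the same shift was subtracted from each library, a setting chosen after seeing the data, 8 genes were lower in the mutant without overlap, against 13.2% of all genes tested, and 3 were higher without overlap, against 15.8%. Ccna2, Ccnb1, Aurkb, Plk1 and Bub1b joined Cdk1, Cdc20 and Kif11 among the lower genes, and Cenpe, Ndc80 and Spc25 were the higher ones. The shift was subtracted from every gene tested. Over all of these the library median had moved 1.01-fold among wild-type and 1.02-fold among mutant libraries. Before the subtraction, 20.3% of all genes tested were lower without overlap and 18.0% higher. Subtracting takes a movement out of the mitosis genes and adds it to genes that did not share it. The counts therefore cannot be weighed against 13.2% and 15.8%, and no test belongs to them.

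**Figure D5:**
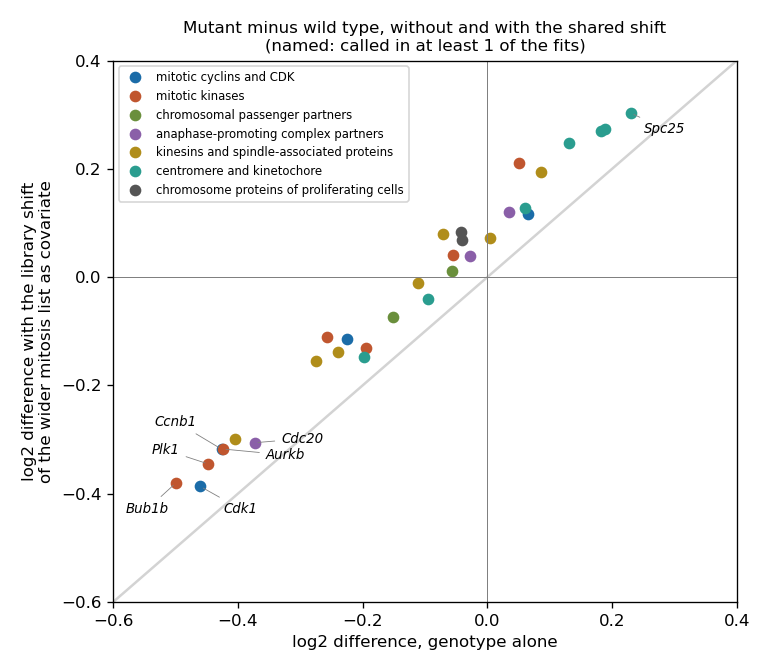
Each point is 1 of the 32 genes, coloured by role, with its log2 difference from the fit on genotype alone (x axis) and from the fit with the library shift of the 143 further mitosis genes as covariate (y axis), and the grey line marks equal values. Points lie above the line throughout, with Bub1b at -0.38 and Spc25 at 0.30 on the y axis.

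Of the 143 further mitosis genes, 8 were called lower and 4 higher in limma, a smaller share in each direction than the 10.9% and 7.94% of all genes tested. Their median difference was -0.07, and 0.0056 and 0.0014 without wild type replicate 3 or mutant replicate 1. The called genes are named as single genes, not as a change of the list. The lower genes by smallest p were Trip13, the ATPase that disassembles the checkpoint complex (-0.66 ± 0.13, adjusted p = 0.00686), Haus1 of the augmin complex (-0.57), Cenph of the inner kinetochore (-0.49), the phosphatase Cdc25a that activates cyclin-dependent kinases (-0.45), the Cdk-binding protein Cks1b (-0.41), Anapc1, the scaffold of the anaphase-promoting complex (-0.50), and Mybl2, the B-Myb partner of the MuvB complex (-0.42). The higher genes were led by Cdk5rap2 of the centrosome (0.82 ± 0.11, adjusted p = 0.00103), Rock1 (0.39) and Cdkn3 (0.61). All 12 called genes were without overlap between genotypes. A promoter window was matched for 122 genes of this list. Of these, 48 (39.3%) held the CHR letters, 71 (58.2%) the CCAAT letters, 34 (27.9%) both and 9 (7.38%) the E-box letters. Kinetochore genes of this list did not lean upward: the median was -0.11 over 17 genes of the centromere complex and its loading (1 lower, 0 higher) and -0.09 over 11 of the outer kinetochore (0 lower, 0 higher). Foxm1, a transcription factor of mitosis genes named here after its values were seen, had 2917, 3637 and 3732 normalised reads in the wild type against 2984, 3824 and 4958 in the mutant (0.17 ± 0.18).

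Genes of DNA replication, which act earlier in the cycle, gave other values in the same libraries. All 32 differences were below 0, with a median of -0.50, and limma called 21 lower and 0 higher, beside 10.9% and 7.94% of all genes tested. They ran from -0.79 in Mcm10, an initiation factor, to -0.15 in Gins4, a subunit of the replicative helicase. Of the 26 with a promoter window, 4 (15.4%) held the CHR letters, 17 (65.4%) the CCAAT letters and 4 (15.4%) the E-box letters. Both CHR and CCAAT stood in 3 (11.5%). The library medians from the mean of all 6 libraries were 0.13, 0.25 and 0.36 in the wild type against -0.39, -0.24 and -0.10 in the mutant, without overlap, whereas those of the 32 mitosis genes were -0.12, 0.01 and 0.27, and -0.28, -0.14 and 0.19. The difference between the lists was not tested.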

How the data were processed

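RNA of 6 DN3 thymocyte libraries, 3 per genotype, was made into cDNA with the SMART-Seq v4 and Nextera XT kits, which keep no strand, per the labels' protocols. The submitters' processing notes name STAR 2.5.3, featureCounts and DESeq2 1.20.0, with builds mm10 and GRCm38. For the annotation release and counting options, the sources used here give nothing. The deposited signal, called normalised reads, is the read count divided by 1 factor for each library. Whole reads were recovered for 100.0% of 126810 values within 0.1 reads. The edgeR count test on them called 3283 genes. Symbols came from GENCODE M21 on GRCm38, and 21100 of 21135 genes had one.

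Genotype was tested with limma 3.58.1 in R 4.3.3 (eBayes with a trend, two-sided) on log2(value + 1), mutant minus wild type, for 17815 genes with a mean of at least 10, with Benjamini-Hochberg adjustment over all of them at 0.05. Every adjusted p is from limma where no other tool is named. Differences use the log2(value + 1) scale, which matters little at these levels, since each of the 32 genes had at least 1166 reads in every library. Errors are standard errors for differences and SD for levels. The members and lists were chosen with earlier results of these data known. Library values are given for genes that were called, were among the 3 lowest or 3 highest differences, were called under an alternative or were at an end of their role. At most 10 called genes of the wider list are named, with the smallest p, and other genes were named after their values were seen. Alternatives were scaling, pseudocount, filter, variance model, library weights, replicate block, leaving out libraries, the covariate, edgeR 4.0.16, DESeq2 1.42.0 and voom. The methods were also run on simulated data, whose outcome is not given here and on which no result above rests.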

Additional observations from a re-analysis of the deposited data

How the results depend on the processing

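The number of the 32 genes called lower (2) moved with most settings: 0 with equal library totals, 1 with TMM factors, 0 without a variance trend, 5 with library weights, 1 with edgeR, 5 with DESeq2, 1 with voom, 6 with the library shift as covariate, 5 without both libraries numbered 3, and 0 to 6 on leaving out 1 library. At an unadjusted p under 0.05 it was 6 with equal totals and 3 without a trend. The number called higher (0) was 1 with the covariate. Of the 143 further genes, those called lower (8) became 4 with equal totals, 3 without a trend and 2 to 13 on leaving out 1 library, and those called higher (4) became 2 without a trend, 8 with library weights and 2 to 3 on leaving out 1 library. The cause of these moves was not tested. Over all these settings 6.05% to 14.7% of all genes were called lower and 4.2% to 11.1% higher. Each of the 32 genes had at least 1166 reads in every library. The median difference ran from -0.24 to -0.0042 over the 32 genes and from -0.16 to 0.0056 over the 143 on leaving out 1 library, moves within the SD of the library shift. The library shift stayed within that SD under the scalings, pseudocounts and filters tried. Equal library totals raised the median of all genes from 0.03 to 0.08 and the share of higher calls from 42.2% to 52.6%.

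A replicate block gave 7 of the 32 genes called lower (Bub1b, Cdc20, Plk1, Cdk1, Aurkb, Ccnb1 and Kif11) and 0 higher, and 7 lower and 5 higher of the 143, beside 9.69% and 7.52% of all genes. Deviations of same-numbered libraries correlated at -0.02, -0.07 and -0.01 over 17815 genes, and no library correlated best with its own number. With 3 libraries per genotype these correlations cannot exclude a pairing, and the labels do not say whether the numbers pair the libraries.

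Of 399 values of the 19 genes with library values under 21 alternatives, 333 kept direction and side of the threshold, 17 lost and 26 gained a call, and 23 changed sign. These 23 are of 7 genes that were not called. Leaving out 1 library gave -0.025 to 0.17 in Ccnb2, -0.14 to 0.26 in Ttk, -0.16 to 0.029 in Birc5, -0.18 to 0.23 in Cdca3, -0.039 to 0.24 in Prc1, -0.24 to 0.13 in Mki67 and -0.15 to 0.12 in Top2a. Equal totals gave 0.0027 in Birc5, 0.017 in Mki67 and 0.019 in Top2a, and library weights -0.11 in Cdca3 and 0.032 in Top2a. The covariate gave 0.011 in Birc5, 0.084 in Mki67 and 0.069 in Top2a, and leaving out both libraries numbered 3 gave -0.20 in Cdca3.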

Other observations

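The library shift was uneven within the 143 further mitosis genes. The 11 other kinesins had medians of -0.17, 0.00 and 0.20 in wild type replicates 1 to 3 and -0.27, -0.06 and 0.31 in mutant replicates 1 to 3, and 8 of them were highest in replicate 3 of both genotypes. The 21 spindle assembly genes had -0.13, -0.02 and 0.18, then -0.18, -0.01 and 0.17, with 16 highest in both. The 17 genes of the anaphase-promoting complex and its regulators had -0.06, -0.01 and 0.05, then -0.02, -0.02 and 0.01, with 4 highest in both. The difference between these groups was not tested.

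Egr1 and Nr4a1, genes induced by receptor signalling, were highest in mutant replicate 3 (12617 and 3432 normalised reads) and were higher in wild type replicate 1 (5029 and 3304) than in wild type replicate 3 (1826 and 921), so their order over the wild-type libraries differed from that of the mitosis genes.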
